A study of Mus musculus with 16 samples.

Results

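The response of mouse peritoneal macrophages to interferon alpha (IFNα) at 2 h was compared between B10.Q mice and mice without Ifnar1. The samples were chosen by group from the titles, and 8 of the 16 arrays of the series entered this comparison, 2 in each of 4 groups. B10.Q macrophages came from 7-week-old male B10.Q/J mice, with 2 arrays at 2 h after a subcutaneous injection of 10000 U IFNα and 2 arrays after vehicle. B10.Q/J is known to carry a natural mutation of the kinase Tyk2. The Ifnar1 knockout (KO) macrophages came from 6-week-old males of the line B6.129S2-Ifnar1tm1Agt/Mmjax, with 2 arrays at 2 h after the same IFNα dose and 2 arrays titled without IFNα, called KO controls here. Cells of all 4 groups were sorted by ICAM2 and F4/80 and hybridised to the Mouse Gene 1.0 ST array of Affymetrix. The quantity tested was the IFNα change in B10.Q minus the IFNα change in KO.

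Several labels limit this comparison. The preparation text of the KO controls describes an IFNα injection 2 h before, as for the treated KO pair, whereas their titles name none. Groups here follow the titles, and both KO groups would be treated if the preparation text holds. The B10.Q vehicle pair holds 1 array from 2 h and another from 5 h. In 3 of the 4 B10.Q titles the code Sp stands where the source field gives the peritoneal cavity. Only the first B10.Q IFNα array has the code PC in its title. No group had both Ifnar1 and Tyk2 intact, so line, age, genotype and experiment cannot be told apart. The labels do not say whether arrays of 1 group used different mice, and a p-value here reflects only array-to-array spread, which may be technical.

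Type I interferons bind a receptor of the chains IFNAR1 and IFNAR2, which carry the kinases Tyk2 and Jak1. The kinases phosphorylate Stat2, which joins Irf9 in the complex ISGF3, and ISGF3 binds the interferon-stimulated response element in the promoters of interferon-stimulated genes. The products block viral replication, sense nucleic acids and feed back on the receptor. Resident peritoneal macrophages are tissue macrophages that carry ICAM2 and F4/80 and depend on the factor Gata6.

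The sorted cells carried the markers of their label: all 17 measured peritoneal macrophage markers of the list lay above the array median in each of the 8 arrays. The mean log2 intensity of that list was 12.35 and 12.41 in B10.Q with IFNα, 12.45 and 12.45 with vehicle, 11.98 and 12.37 in KO with IFNα and 12.27 and 12.19 in the KO controls. The 10 measured B cell markers averaged 7.17 and 7.17 in B10.Q with IFNα, 7.10 and 7.16 with vehicle, 7.87 and 7.20 in KO with IFNα and 7.64 and 7.27 in the KO controls. The 11 neutrophil markers averaged 6.82 and 6.84 in B10.Q with IFNα, 6.72 and 6.78 with vehicle, 7.27 and 6.92 in KO with IFNα and 7.52 and 6.97 in the KO controls. In each array 3 to 5 of the B cell markers and 3 or 4 of the neutrophil markers lay above the array median. Both lists were thus higher in KO, and higher in the first array of each KO pair, a pattern whose part in the results was not tested. Array medians were 7.49 to 7.60 on the log2 scale over the 8 arrays. The number of arrays limits the precision, and in bulk RNA a change in the number of contaminating cells cannot be told apart from a change of RNA per cell.

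Of the lists, 12 of 31 tested antiviral effectors and 7 of 8 Schlafen genes, with the ISGF3 subunits Stat2 and Irf9 and the factor Irf7, rose more with IFNα in B10.Q macrophages than in KO macrophages. The lists were chosen with earlier results of these data known. List shares and medians set against all tested genes, here and below, are therefore a description. Of 10531 genes tested, 43 passed the test for a difference of responses (limma, Benjamini-Hochberg adjusted p under 0.05), a share of 0.408%. In all 43 the difference was above 0, and 0 genes passed below 0. At an unadjusted p under 0.05 the split was even, with 319 genes above 0 and 327 below. At any p, 4431 of the 10531 differences lay above 0. The differences of the 43 ran from 1.12 to 5.42 on the log2 scale, with a median of 2.28. Left out singly, an array moved this count to between 8 and 491. It was 9 and 11 without the first and the second vehicle array, 8 without the second KO control array, 94 and 491 without the first and the second KO IFNα array, and 90 without the second B10.Q IFNα array. With all 8 arrays kept, 12 of the 43 lost their call under at least 1 other setting, at adjusted p of 0.0506 to 0.117. They were Arg1, Axl, Cmpk2, Ifi207, Ifi209, Phf11a, Rnf213, Sass6, Slfn2, Stat2, Trex1 and Trim34a. With a filter at the 70th percentile of each array, 41 of the 43 were still tested, and these kept their call. Chek1 and Cgas were too dim for that filter.

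Taken by line, the B10.Q change alone passed in 84 genes, all of them higher with IFNα (0.798%), and in 36 when the first or the second vehicle array was left out. The KO change passed in 0 genes by limma (0%), with 460 at an unadjusted p under 0.05, of which 186 were higher and 274 lower. Without the second KO IFNα array 1191 genes passed in KO (282 higher and 909 lower), and without the first 37 passed (7 higher and 30 lower). Among the 43, 41 also passed in B10.Q alone, which rests on the same B10.Q arrays. Their B10.Q changes ran from 0.25 to 5.22, with a median of 1.99. Their KO changes ran from -1.11 to 0.27, with a median of -0.26. The KO change was below 0 in 40 of the 43, against 5640 of all 10531 tested genes, and above 0 in 3. Choosing genes by the difference favours those with a low KO change, so this split is a description.

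The arrays show the same pattern without the model. In 43 of the 43 genes both B10.Q IFNα arrays lay above both vehicle arrays, an order that 11.3% of all tested genes had. In 41 of the 43 both B10.Q IFNα arrays lay above all 6 other arrays, against 4.64% of all tested genes. The exceptions were Axl and Chek1. For 7 of the 43 the array median was exceeded in none of those 6 arrays. In KO both IFNα arrays lay below both controls in 26 of the 43, against 10.3% of all tested genes, and above both in 1 of the 43, against 11.5%. These orders follow from the values that chose the 43 and are given as a description. Peritoneal B10.Q macrophages were not alone in the first order: in arrays that did not enter the choice, B10.Q CD4+ T cells at 2 h had both IFNα arrays above both vehicle arrays for 37 of the 43 genes, against 15.3% of all tested genes. Of these T-cell vehicle arrays, the first has the code B in its title in place of T4, although its cell family and sort markers are those of CD4+ T cells, and the other was taken at 5 h. Against the 5 h array alone, a setting chosen after seeing the data, the count was 39 of the 43, against 27.1% of all tested genes.

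**Figure D1:**
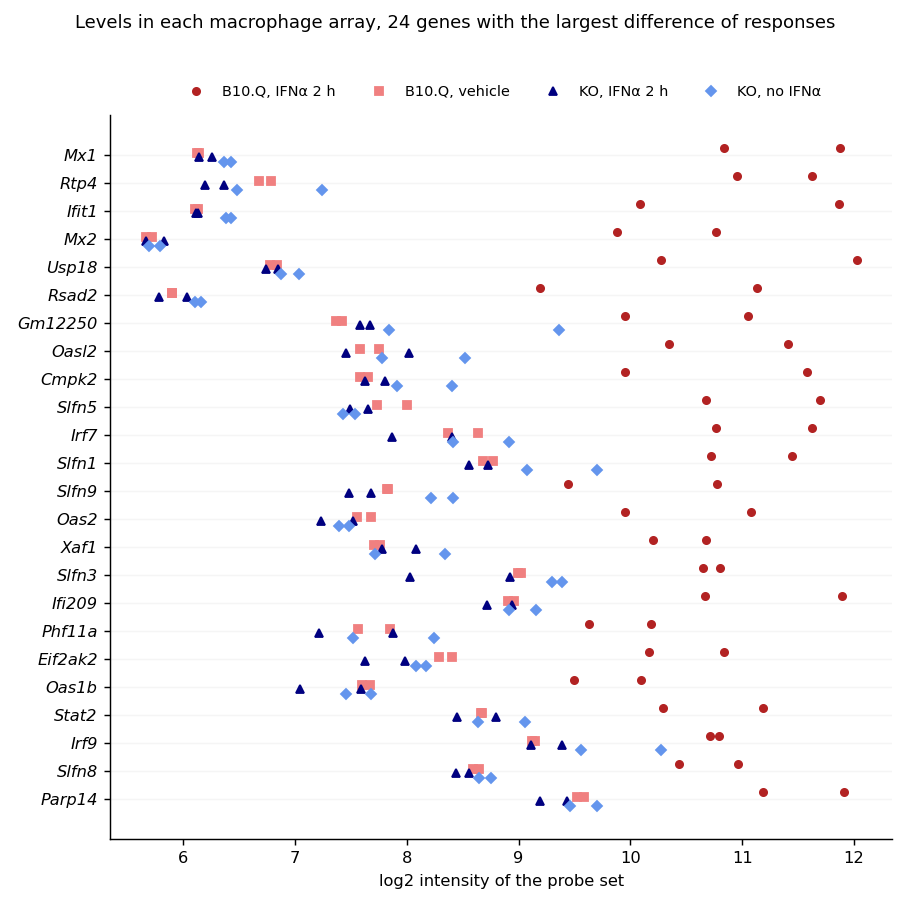
Log2 intensity of genes that passed the test of the difference, 1 row per gene for the 24 with the largest difference and 1 point per array, with colour and shape marking the 4 groups. Both B10.Q IFNα arrays lie to the right of the other 6 arrays in every row shown, and the KO control arrays of Gm12250 lie far apart.

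The 2 arrays of a group were not equally high. The KO IFNα pair agreed least over all tested genes, with a median absolute difference of 0.258 log2 units, against 0.147 in B10.Q with IFNα, 0.0797 in B10.Q with vehicle and 0.126 in the KO controls. Its first array had an upper to lower quartile ratio of 5.49 and its second 7.00. The first B10.Q IFNα array exceeded the second in 41 of the 43 genes, by a median of 0.65 log2 units, while the median over all tested genes was -0.09. The second KO control array exceeded the first in 33 of the 43, against 51% of all tested genes. It was the highest of the 4 KO arrays in 29 of the 43, against 19.2%. Without this array the differences of the 43 shifted by a median of -0.09 log2 units (-0.76 for Gm12250 to 0.12), and 8 of the 43 remained past the test. Without the first or the second vehicle array 9 and 11 remained.

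Antiviral effectors held the largest differences. Of 31 tested members, 12 passed, all with a larger change in B10.Q, and the median difference of the list was 1.47, against -0.04 over all tested genes. Mx1 read 11.87 and 10.84 in B10.Q with IFNα, against 6.15 and 6.12 with vehicle, and 6.25 and 6.14 in KO with IFNα, against 6.36 and 6.43 in the KO controls. Only the 2 B10.Q IFNα arrays stood apart, and the difference was 5.42 ± 0.37 (SE; adjusted p = 2.70e-04). Mx1 and Mx2 belong to a family of GTPases known to trap viral components. Mx2 read 10.76 and 9.88 in B10.Q with IFNα, against 5.67 and 5.72 with vehicle, and 5.67 and 5.83 in KO with IFNα, against 5.79 and 5.70 in the KO controls. The difference of Mx2 was 4.63 ± 0.33 (adjusted p = 2.70e-04), again with no overlap between the B10.Q IFNα arrays and the others.

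Ifit1 read 11.87 and 10.09 in B10.Q with IFNα, against 6.13 and 6.11 with vehicle, and 6.11 and 6.13 in KO with IFNα, against 6.39 and 6.43 in the KO controls. Ifit1 binds RNA that lacks the cap methylation of the host, and its difference was 5.14 ± 0.59 (adjusted p = 0.00769). Rsad2 read 11.13 and 9.19 in B10.Q with IFNα, against 5.90 and 5.90 with vehicle, and 6.04 and 5.78 in KO with IFNα, against 6.10 and 6.16 in the KO controls. Rsad2, viperin, makes a nucleotide that ends viral RNA chains, and its difference was 4.48 ± 0.64 (adjusted p = 0.0136). Cmpk2 read 11.58 and 9.95 in B10.Q with IFNα, against 7.58 and 7.65 with vehicle, and 7.81 and 7.63 in KO with IFNα, against 7.91 and 8.40 in the KO controls. Cmpk2 is a nucleotide kinase whose gene lies beside Rsad2, and its difference was 3.59 ± 0.56 (adjusted p = 0.0247). Both vehicle arrays of Mx1, Mx2, Ifit1 and Rsad2 lay below the lower quartile of their array, so the sizes of these differences are uncertain.

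Rtp4 read 11.63 and 10.96 in B10.Q with IFNα, against 6.68 and 6.79 with vehicle, and 6.19 and 6.36 in KO with IFNα, against 6.48 and 7.24 in the KO controls. Rtp4 is a receptor-transporting protein induced by interferon, and its difference was 5.14 ± 0.36 (adjusted p = 2.70e-04). Oasl2 read 11.41 and 10.35 in B10.Q with IFNα, against 7.58 and 7.75 with vehicle, and 8.02 and 7.46 in KO with IFNα, against 7.77 and 8.53 in the KO controls. Oas2 read 11.08 and 9.95 in B10.Q with IFNα, against 7.68 and 7.56 with vehicle, and 7.52 and 7.24 in KO with IFNα, against 7.40 and 7.48 in the KO controls. Many OAS proteins make 2′-5′-linked oligoadenylates, which activate RNase L. The difference of Oasl2 was 3.62 ± 0.47 (adjusted p = 0.011), and that of Oas2 was 2.96 ± 0.40 (adjusted p = 0.011). Oas1b read 10.10 and 9.50 in B10.Q with IFNα, against 7.67 and 7.60 with vehicle, and 7.05 and 7.59 in KO with IFNα, against 7.46 and 7.68 in the KO controls. The difference of Oas1b was 2.41 ± 0.30 (adjusted p = 0.009), and that of Oas1a was 1.81 ± 0.22 (adjusted p = 0.00895). In each of these genes both B10.Q IFNα arrays lay above the other 6.

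Eif2ak2 read 10.83 and 10.16 in B10.Q with IFNα, against 8.29 and 8.41 with vehicle, and 7.63 and 7.98 in KO with IFNα, against 8.09 and 8.18 in the KO controls. Eif2ak2, or PKR, halts translation when it meets double-stranded RNA, and its difference was 2.48 ± 0.29 (adjusted p = 0.00874). Xaf1 read 10.68 and 10.20 in B10.Q with IFNα, against 7.76 and 7.70 with vehicle, and 8.08 and 7.78 in KO with IFNα, against 7.71 and 8.34 in the KO controls. Xaf1, a partner of the apoptosis inhibitor XIAP, had a difference of 2.80 ± 0.31 (adjusted p = 0.00631). Xaf1, Mx1, Mx2 and Rtp4 were among the 7 genes that still passed in every one of the 8 fits with 1 array left out. The other 3 were Slfn1, Slfn8 and Slfn10-ps.

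The promoters of 5 of the 43 genes are shown because the response element bound by ISGF3 lies there in many interferon-stimulated genes. The 300 bases run from 250 before to 50 after the gene start, on the gene's strand, from RefSeq on GRCm38.p6, and capitals mark matches, on either strand, to GAAA followed by any 2 bases and GAAA, the core of that element.
Ifit1, chr19:34640639-34640938, + strand: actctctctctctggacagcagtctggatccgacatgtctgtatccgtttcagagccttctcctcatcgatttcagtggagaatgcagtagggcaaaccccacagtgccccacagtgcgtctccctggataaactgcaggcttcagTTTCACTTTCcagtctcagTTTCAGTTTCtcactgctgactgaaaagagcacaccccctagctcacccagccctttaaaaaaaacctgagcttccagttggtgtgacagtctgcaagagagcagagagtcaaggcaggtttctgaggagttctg
Rsad2, chr12:26456403-26456702, - strand: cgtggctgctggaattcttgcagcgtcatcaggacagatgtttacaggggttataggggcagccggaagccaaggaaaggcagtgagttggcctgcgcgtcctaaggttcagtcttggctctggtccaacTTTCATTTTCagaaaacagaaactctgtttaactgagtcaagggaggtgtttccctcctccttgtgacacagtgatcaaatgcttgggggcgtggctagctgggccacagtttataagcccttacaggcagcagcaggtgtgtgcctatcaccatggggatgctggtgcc
Gm12250, chr11:58183593-58183892, + strand: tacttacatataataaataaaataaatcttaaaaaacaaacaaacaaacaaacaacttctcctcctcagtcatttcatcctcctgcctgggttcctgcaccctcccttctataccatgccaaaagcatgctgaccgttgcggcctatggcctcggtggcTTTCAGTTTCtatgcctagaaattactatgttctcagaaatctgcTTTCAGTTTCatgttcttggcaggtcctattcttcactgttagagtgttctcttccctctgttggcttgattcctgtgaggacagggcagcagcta
Oasl2, chr5:114896684-114896983, + strand: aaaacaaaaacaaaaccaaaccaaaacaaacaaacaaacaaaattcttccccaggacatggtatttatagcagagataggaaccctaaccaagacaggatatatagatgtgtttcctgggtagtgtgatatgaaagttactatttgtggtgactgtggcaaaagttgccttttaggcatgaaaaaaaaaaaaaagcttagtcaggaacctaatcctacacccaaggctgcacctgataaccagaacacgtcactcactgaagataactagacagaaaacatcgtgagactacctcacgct
Cmpk2, chr12:26468965-26469264, + strand: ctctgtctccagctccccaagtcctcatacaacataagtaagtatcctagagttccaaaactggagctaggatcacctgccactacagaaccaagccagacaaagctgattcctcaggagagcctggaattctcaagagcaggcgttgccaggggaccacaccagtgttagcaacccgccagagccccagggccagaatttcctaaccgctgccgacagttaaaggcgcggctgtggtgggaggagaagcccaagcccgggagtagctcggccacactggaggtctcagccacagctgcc
Ifit1 held 2 matches, which began 104 and 85 bases before the start, and Rsad2 held 1, at 120 bases before it. Gm12250 held 2, at 91 and 46 bases before the start. The windows of Oasl2 and Cmpk2 held none of these letters. Of the 43 genes, 31 had a window in the table, and 14 of these 31 held the motif (45.2%). Over all tested genes with a window the share was 320 of 8528 (3.75%), and over all windows it was 1131 of 32851 (3.44%). A match is a description of the letters and not evidence of binding.

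Conjugation of the ubiquitin-like protein ISG15, and its removal, was represented by 6 tested genes, of which 1 passed. Usp18 read 12.03 and 10.28 in B10.Q with IFNα, against 6.84 and 6.78 with vehicle, and 6.84 and 6.74 in KO with IFNα, against 6.87 and 7.04 in the KO controls. Usp18 removes ISG15 and also holds back signalling at IFNAR2, and its difference was 4.50 ± 0.59 (adjusted p = 0.011). The ligase Herc6 had a difference of 2.14 ± 0.44 (adjusted p = 0.0936), Trim25 of 1.04 ± 0.22 (adjusted p = 0.108) and the conjugating enzyme Ube2l6 of 0.77 ± 0.35 (adjusted p = 0.825). None of these other members passed. The median of the list was 0.91.

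Sensors of nucleic acids gave 4 passing genes of 19 tested, with a median difference of 1.53. Ifi209 read 11.89 and 10.67 in B10.Q with IFNα, against 8.96 and 8.91 with vehicle, and 8.95 and 8.71 in KO with IFNα, against 9.16 and 8.91 in the KO controls. Ifi209 belongs to the IFI200 family of DNA-binding proteins, and its difference was 2.55 ± 0.43 (adjusted p = 0.0347). Its relative Ifi207 had a difference of 1.68 ± 0.22 (adjusted p = 0.011). Ddx58, the RNA sensor RIG-I, had 1.96 ± 0.29 (adjusted p = 0.0183), and Cgas, the DNA sensor that makes cyclic GMP-AMP, had 1.53 ± 0.20 (adjusted p = 0.011). Some larger differences in this list had a larger SE and did not pass. Ifi205 read 11.05 and 9.08 in B10.Q with IFNα, against 5.82 and 5.98 with vehicle, and 7.70 and 6.71 in KO with IFNα, against 6.65 and 6.94 in the KO controls. Its difference was 3.75 ± 0.72 (adjusted p = 0.0718). Ifi213 had 3.68 ± 0.79 (adjusted p = 0.123) and Ifi208 2.58 ± 0.58 (adjusted p = 0.143). Both vehicle arrays of Ifi205, Ifi213 and Ifi208 lay below the lower quartile of their array, so these sizes are uncertain too.

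Nearly the whole Schlafen family passed. Of its 8 tested members 7 did, and the 8 differences ran from 1.86 to 3.23 on the log2 scale, with a median of 2.43. Slfn5 read 11.69 and 10.68 in B10.Q with IFNα, against 7.74 and 8.0 with vehicle, and 7.49 and 7.65 in KO with IFNα, against 7.43 and 7.54 in the KO controls. Slfn1 read 11.44 and 10.72 in B10.Q with IFNα, against 8.69 and 8.77 with vehicle, and 8.73 and 8.56 in KO with IFNα, against 9.07 and 9.70 in the KO controls. Slfn9 read 10.78 and 9.44 in B10.Q with IFNα, against 7.84 and 7.82 with vehicle, and 7.68 and 7.48 in KO with IFNα, against 8.22 and 8.41 in the KO controls. Each of these genes was higher in both B10.Q IFNα arrays than in the other 6. The differences were 3.23 ± 0.40 for Slfn5 (adjusted p = 0.00895), 3.10 ± 0.35 for Slfn1 (adjusted p = 0.00707) and 3.01 ± 0.46 for Slfn9 (adjusted p = 0.02).

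Slfn3 read 10.80 and 10.65 in B10.Q with IFNα, against 9.02 and 8.99 with vehicle, and 8.03 and 8.93 in KO with IFNα, against 9.39 and 9.30 in the KO controls. Slfn8 read 10.96 and 10.43 in B10.Q with IFNα, against 8.64 and 8.59 with vehicle, and 8.56 and 8.44 in KO with IFNα, against 8.64 and 8.75 in the KO controls. The difference of Slfn3 was 2.59 ± 0.33 (adjusted p = 0.009), and that of Slfn8 was 2.27 ± 0.22 (adjusted p = 0.00378). Slfn2, which is needed for T-cell quiescence in mice, had 1.88 ± 0.31 (adjusted p = 0.0347), and the pseudogene Slfn10-ps had 2.06 ± 0.21 (adjusted p = 0.00459). Members of this family are near-identical in part, so a probe set may read more than 1 of them. The KO changes of the family had a median of -0.32. An unadjusted p under 0.05 in KO was found for 4 of its 8 members, against 460 of all 10531 tested genes.

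Among PARP enzymes, which transfer ADP-ribose, and Dtx3l, the ligase that pairs with Parp9, 3 of 10 tested genes passed. Parp14 read 11.91 and 11.18 in B10.Q with IFNα, against 9.58 and 9.52 with vehicle, and 9.19 and 9.43 in KO with IFNα, against 9.46 and 9.70 in the KO controls. The difference of Parp14 was 2.26 ± 0.31 (adjusted p = 0.011). Parp9 had 1.99 ± 0.28 (adjusted p = 0.0127) and Dtx3l 1.98 ± 0.27 (adjusted p = 0.012). The B10.Q change was 1.73 for Parp9 and 1.37 for Dtx3l, and the KO change was -0.26 and -0.60. Parp12 had 1.43 ± 0.31 and did not pass (adjusted p = 0.123).

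TRIM proteins and components of PML nuclear bodies gave 1 passing gene of 13, Trim34a, with 1.15 ± 0.17 (adjusted p = 0.02). Daxx, Sp100, Trim30d and Pml did not pass. Daxx had 1.48 ± 0.28 (adjusted p = 0.0684), Sp100 1.45 ± 0.32 (adjusted p = 0.129), Trim30d 1.31 ± 0.25 (adjusted p = 0.0684) and Pml 1.21 ± 0.21 (adjusted p = 0.0532). The list had a median of 1.06, and 12 of its 13 members were above 0, against 4431 of all 10531 tested genes.

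The guanylate-binding and immunity-related GTPases, which attack the vacuoles of pathogens, are induced by interferon gamma more than by IFNα in many cells. Of 7 tested members 1 passed. Gm12250 read 11.05 and 9.95 in B10.Q with IFNα, against 7.37 and 7.42 with vehicle, and 7.67 and 7.58 in KO with IFNα, against 7.84 and 9.36 in the KO controls. The B10.Q change of Gm12250 was 3.11 ± 0.44 and its KO change -0.98 ± 0.44, for a difference of 4.08 ± 0.62 (adjusted p = 0.02). The second KO control array was far above the first, and without it the difference was 3.32 (adjusted p = 0.0639).

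Other GTPases had the same high second control. Irgm1 read 8.72 and 8.49 in KO with IFNα, against 8.37 and 9.88 in the KO controls. Iigp1 read 5.54 and 5.66 in KO with IFNα, against 5.57 and 7.20, and Gbp5 read 7.52 and 7.81, against 8.03 and 9.23. Their differences were 2.89 ± 0.54 for Irgm1 (adjusted p = 0.0664), 3.46 ± 1.11 for Iigp1 (adjusted p = 0.529) and 2.77 ± 0.62 for Gbp5 (adjusted p = 0.137), and none passed. The size for Iigp1 is uncertain, since both its vehicle arrays lay below the lower quartile. The list's median KO change was -0.93, against -0.01 over all tested genes.

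**Figure D2:**
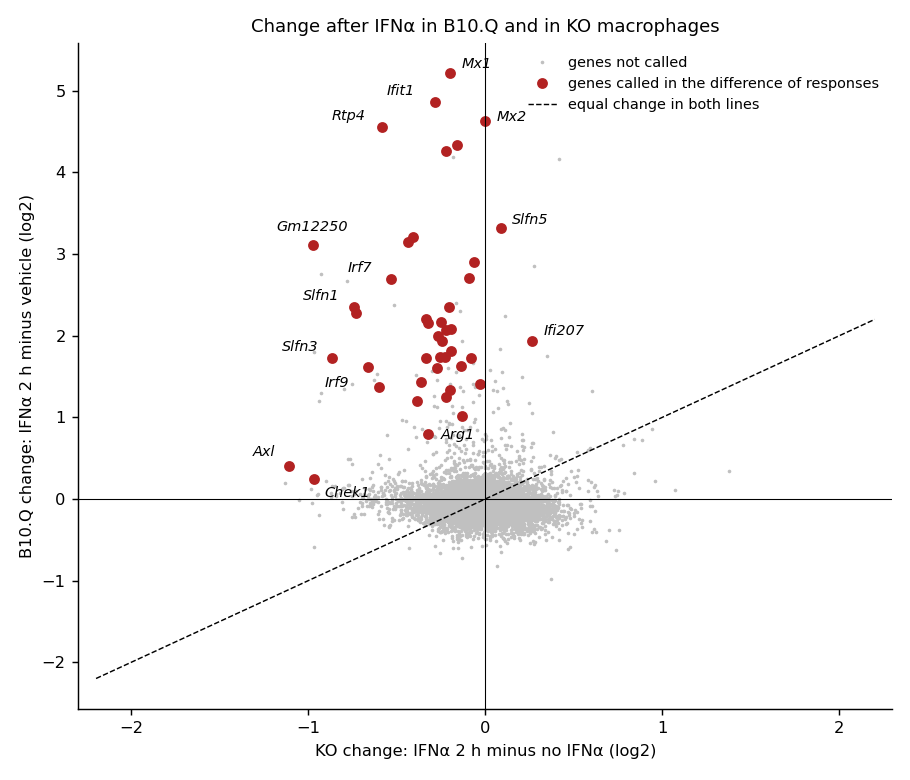
Change with IFNα in B10.Q (vertical axis) and in KO (horizontal axis), on the log2 scale, 1 point per tested gene, with the 43 genes that passed the difference in red and a dashed line at equal change. The red points spread up to 5.22 along the B10.Q axis and lie between -1.11 and 0.27 on the KO axis.

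Receptor and JAK-STAT genes included 2 passing members of 10, with a median of 0.00. Stat2 read 11.18 and 10.29 in B10.Q with IFNα, against 8.67 and 8.67 with vehicle, and 8.45 and 8.80 in KO with IFNα, against 8.63 and 9.06 in the KO controls. Irf9 read 10.79 and 10.72 in B10.Q with IFNα, against 9.12 and 9.15 with vehicle, and 9.11 and 9.39 in KO with IFNα, against 9.56 and 10.27 in the KO controls. Stat2 and Irf9 are subunits of ISGF3. The difference of Stat2 was 2.29 ± 0.37 (adjusted p = 0.03), and that of Irf9 was 2.28 ± 0.28 (adjusted p = 0.00895). Both B10.Q IFNα arrays lay above the other 6 arrays for each.

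Of the receptor chains and the kinase, none passed. Ifnar1 read 10.14 and 10.28 in B10.Q with IFNα, against 10.26 and 10.46 with vehicle, and 9.93 and 10.31 in KO with IFNα, against 10.26 and 10.09 in the KO controls. Its levels overlapped between lines, so it says nothing for or against the genotype: a disrupted allele can leave a transcript that the probes still read. Its difference was -0.09 ± 0.21 (95% interval -0.57 to 0.39), with values of -0.28 to 0.10 when single arrays were left out. Ifnar2 had -0.15 ± 0.15 (95% interval -0.48 to 0.18) and Tyk2 0.21 ± 0.19 (95% interval -0.20 to 0.63).

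Among interferon regulatory factors 1 of 7 passed. Irf7 read 11.63 and 10.77 in B10.Q with IFNα, against 8.37 and 8.64 with vehicle, and 7.87 and 8.40 in KO with IFNα, against 8.42 and 8.92 in the KO controls. Irf7 drives the second wave of interferon genes, and its difference was 3.23 ± 0.40 (adjusted p = 0.00895). Irf1 had 2.16 ± 0.43 (adjusted p = 0.0843), with 9.18 and 9.43 in KO with IFNα, against 9.50 and 10.61 in the KO controls. Irf4 had -0.34 ± 0.25 and Irf3 -0.25 ± 0.16, and neither passed. Of 9 tested feedback inhibitors, 0 passed by limma, with 2 at an unadjusted p under 0.05 and a median of -0.02. These were Socs1, which blocks Jak1 and Tyk2, with 0.68 ± 0.28 (adjusted p = 0.766), and Pias1, an inhibitor of STAT proteins, with -0.50 ± 0.21 (adjusted p = 0.768).

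Of 14 tested chemokines and cytokines 0 passed by limma, while 8 had an unadjusted p under 0.05 and 12 lay above 0, with a median of 0.94. Over all 10531 tested genes, 646 had such a p and 4431 lay above 0. Ccl2, which recruits monocytes, read 10.67 and 9.03 in B10.Q with IFNα, against 7.50 and 7.60 with vehicle. Its difference was 2.45 ± 0.59 (adjusted p = 0.205). Cxcl10, a ligand of Cxcr3, had 2.26 ± 0.70 (adjusted p = 0.486), Ccl7 2.06 ± 0.72 (adjusted p = 0.593) and Il15 1.61 ± 0.34 (adjusted p = 0.116). The first B10.Q IFNα array was well above the second for Ccl2, Cxcl10 and Ccl7.

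MHC class I presentation gave 1 passing gene of 17, H2-T24, a non-classical class I gene. H2-T24 read 11.38 and 10.71 in B10.Q with IFNα, against 9.11 and 9.11 with vehicle, and 8.74 and 8.90 in KO with IFNα, against 8.89 and 9.24 in the KO controls. Its difference was 2.18 ± 0.29 (adjusted p = 0.011). The peptide transporter Tap1 had 2.15 ± 0.47 (adjusted p = 0.123), with 9.02 and 10.18 in the KO controls, Psmb8, an immunoproteasome subunit, had 0.66 ± 0.28 (adjusted p = 0.781), and H2-Q4 had 0.64 ± 0.23 (adjusted p = 0.606). H2 genes differ in sequence between these strains, so their probe sets can read the lines unequally.

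MHC class II presentation gave 0 passing genes of 7 by limma, and its median difference was 0.68. An unadjusted p under 0.05 was found for 3 of the 7, against 646 of all 10531 tested genes. The median change of the list was 0.00 in B10.Q and -0.65 in KO. H2-Eb1 read 8.62 and 8.18 in B10.Q with IFNα, against 8.21 and 8.26 with vehicle, and 9.53 and 9.70 in KO with IFNα, against 10.45 and 10.52 in the KO controls. Its difference was 1.03 ± 0.23 (adjusted p = 0.153). Ciita, the master factor of these genes, had 0.94 ± 0.36 (adjusted p = 0.7), H2-Ab1 0.76 ± 0.32 (adjusted p = 0.78) and H2-Aa 0.68 ± 0.34 (adjusted p = 0.877). In the arrays without IFNα, 5 of the 7 differed between lines, against 57 of all 10531 tested genes (0.541%). The list median was -1.78 on the log2 scale for B10.Q minus KO. H2-Ab1 was -3.41 ± 0.23 (adjusted p = 9.02e-05) in that comparison. B cell markers, which come from cells rich in class II, were higher in KO as given above, mainly in the first array of each pair. The 9 measured class II genes averaged 9.49 and 9.78 in the KO controls, where the B cell list averaged 7.64 and 7.27. In KO with IFNα they averaged 9.20 and 9.20, where the B cell list averaged 7.87 and 7.20. The part of B cells here was not tested, and the limit on H2 probe sets given above applies to this comparison too.

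**Figure D3:**
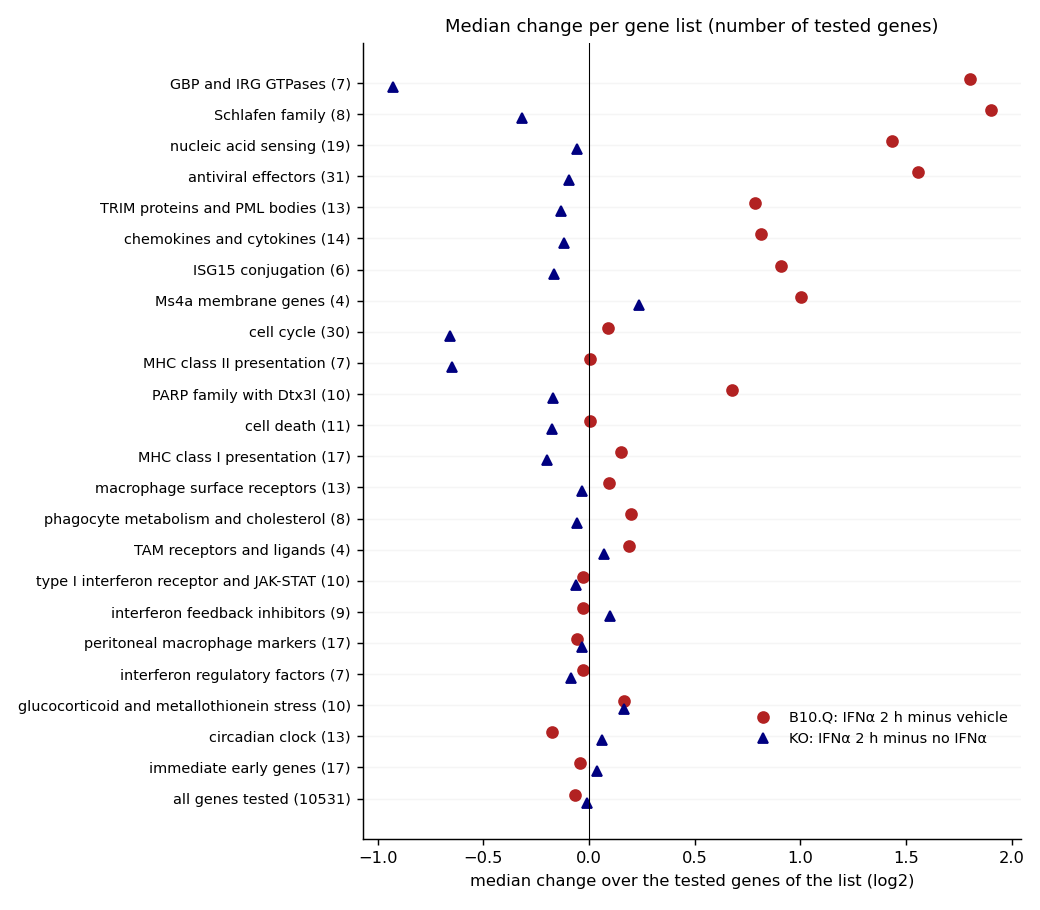
Median log2 change with IFNα over the tested genes of each list, in B10.Q (circles) and in KO (triangles). The Schlafen list lies at 1.90 in B10.Q and -0.32 in KO, and the cell cycle list at 0.09 in B10.Q and -0.66 in KO.

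In no list stood 6 of the 43 genes. Phf11a read 10.18 and 9.63 in B10.Q with IFNα, against 7.57 and 7.85 with vehicle, and 7.88 and 7.22 in KO with IFNα, against 7.52 and 8.25 in the KO controls. Phf11a, a PHD finger gene, had a difference of 2.53 ± 0.41 (adjusted p = 0.03). Dck, which phosphorylates deoxyribonucleosides, had 1.76 ± 0.25 (adjusted p = 0.0133), and Sass6, a centriole assembly protein, 1.47 ± 0.23 (adjusted p = 0.0251). Trex1, an exonuclease that clears cytosolic DNA, had 1.43 ± 0.23 (adjusted p = 0.0251), and Helz2, a helicase, had 2.01 ± 0.28 (adjusted p = 0.0133). Rnf213, a ubiquitin ligase, had 1.80 ± 0.31 (adjusted p = 0.0474). It was the 1 gene of the 43 with a second probe set, which gave 1.74 ± 0.29 (adjusted p = 0.0432) in the fit of every probe set, where the first had an adjusted p of 0.0558.

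Siglec1, the sialic acid receptor CD169 of macrophages, was the 1 member of 13 surface receptors to pass, with 1.59 ± 0.24 (adjusted p = 0.02). Cd274, the ligand PD-L1, had 2.08 ± 0.47 (adjusted p = 0.153) and Fcgr1, a receptor for IgG, 1.51 ± 0.38 (adjusted p = 0.235). Among Ms4a membrane genes 0 of 4 passed by limma, with 2 at an unadjusted p under 0.05, and Ms4a6c had 1.29 ± 0.33 (adjusted p = 0.244). Ms4a4c, low in both vehicle arrays in the same way, had 1.40 ± 0.61 (adjusted p = 0.792).

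In 2 of the 43 genes the difference came mostly from KO. Axl, a receptor that clears apoptotic cells, changed by 0.40 in B10.Q and by -1.11 in KO, for a difference of 1.51 ± 0.24 (adjusted p = 0.03). It did not pass with the replicate block (adjusted p = 0.0617), with array medians subtracted (0.0507) or with only the 4 groups (0.0686), and passed in 2 of the 8 fits without 1 array. Axl was the 1 of 4 tested TAM receptors and ligands to pass, while its relative Mertk had 0.26 ± 0.25 and the ligand Pros1 -0.24 ± 0.15. Chek1, a checkpoint kinase, changed by 0.25 in B10.Q and by -0.97 in KO, for a difference of 1.22 ± 0.17 (adjusted p = 0.011). Chek1 was also the 1 of the 43 that passed between lines without IFNα, at -0.79 ± 0.12 (adjusted p = 0.0173), a comparison in which 57 of the 10531 genes passed (0.541%), 29 higher and 28 lower in B10.Q. Arg1, which cleaves arginine, changed by 0.79 in B10.Q and by -0.32 in KO, for a difference of 1.12 ± 0.18 (adjusted p = 0.03). Like Axl, Arg1 did not pass with only the 4 groups (adjusted p = 0.0574). Its difference was 1.00 to 1.24 when single arrays were left out. It was the 1 of 8 tested genes of phagocyte metabolism to pass, and Nampt, which makes NAD precursors, had 1.10 ± 0.28 (adjusted p = 0.258).

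The cell cycle list, of which Chek1 is 1 of 30 tested members, was led by KO, as was the MHC class II list above. All 30 differences lay above 0, against 4431 of all 10531 tested genes. Their median was 0.73, while the median change was 0.09 in B10.Q and -0.66 in KO. In KO 24 of the 30 had an unadjusted p under 0.05, against 460 of the 10531, and 0 passed after adjustment by limma. Top2a, a topoisomerase of dividing cells, read 8.79 and 8.79 in B10.Q with IFNα, against 8.41 and 8.91 with vehicle, and 8.21 and 8.23 in KO with IFNα, against 9.08 and 9.34 in the KO controls. Its difference was 1.11 ± 0.23 (adjusted p = 0.0938). Cdk1 had 1.00 ± 0.32 (adjusted p = 0.517) and Rrm2, which makes deoxyribonucleotides, 0.99 ± 0.23 (adjusted p = 0.172). Chek1 alone of the 30 passed.

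**Figure D4:**
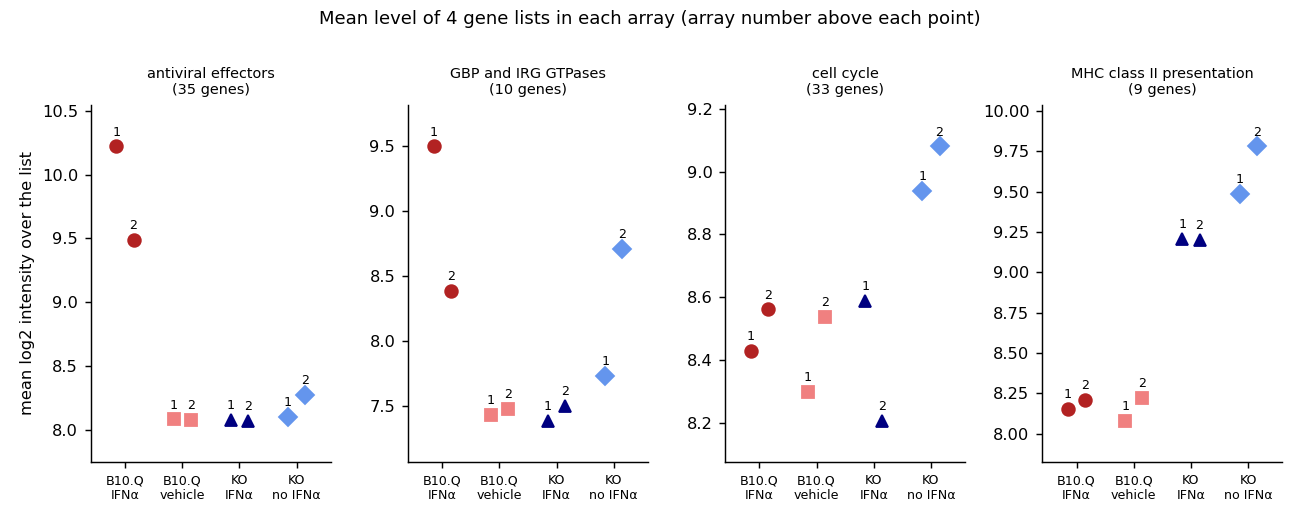
Mean log2 intensity of the measured genes of 4 lists, 1 point per array with its array number, by group. The antiviral list is highest in the B10.Q IFNα arrays, the cell cycle and class II lists are highest in the KO controls, and the second KO control is the higher of its pair for the GTPases.

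The remaining lists held no gene that passed. The cell death list had 0 passing genes of 11 by limma, with 1 at an unadjusted p under 0.05, and Mlkl, the effector of necroptosis, had 1.10 ± 0.22 (adjusted p = 0.0936). Immediate early genes had 0 of 17, with 1 at an unadjusted p under 0.05 and a median of -0.09. The clock list had 0 of 13, with 1 at an unadjusted p under 0.05. Its member Nr1d1, a clock repressor, read 9.10 and 9.66 in B10.Q with IFNα, against 9.64 and 11.07 with vehicle, where the higher vehicle array was taken at 5 h. Stress genes had 0 of 10, with 2 at an unadjusted p under 0.05. These 2 went in opposite directions. The metallothionein Mt2 read 9.44 and 9.57 in KO with IFNα, against 7.73 and 8.54 in the KO controls, with a difference of -1.03 ± 0.33 (adjusted p = 0.517). Sgk1 had a difference of 0.94 ± 0.28 (adjusted p = 0.459). Peritoneal macrophage markers had 0 of 17 by limma, with 0 at an unadjusted p under 0.05 and a median of -0.03. Of the markers of other cells, 0 passed by limma among 4 tested for B cells, 1 for T and NK cells, 3 for neutrophils, 6 for monocytes and small macrophages, 4 for mesothelium and fibroblasts and 3 for erythroid cells and platelets. Among these, 1 neutrophil marker had an unadjusted p under 0.05. Of mast cell and eosinophil markers 0 were bright enough to test, and the 1 interferon gene tested did not pass.

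No gene passed with a larger change in KO. The smallest p-values among negative differences belonged to Tcim, with -1.03 ± 0.23 (adjusted p = 0.152), Rassf2, with -0.77 ± 0.19 (adjusted p = 0.205), and Ogfod3, with -0.75 ± 0.18 (adjusted p = 0.205). Tcim read 9.13 and 9.19 in B10.Q with IFNα, against 9.71 and 9.43 with vehicle, and 9.91 and 9.82 in KO with IFNα, against 9.49 and 8.99 in the KO controls. The other 5 named by the rule, Anp32-ps, Zfp931, Qpct, Ptges and Msl1, lay between -1.07 and -0.68.

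**Figure D5:**
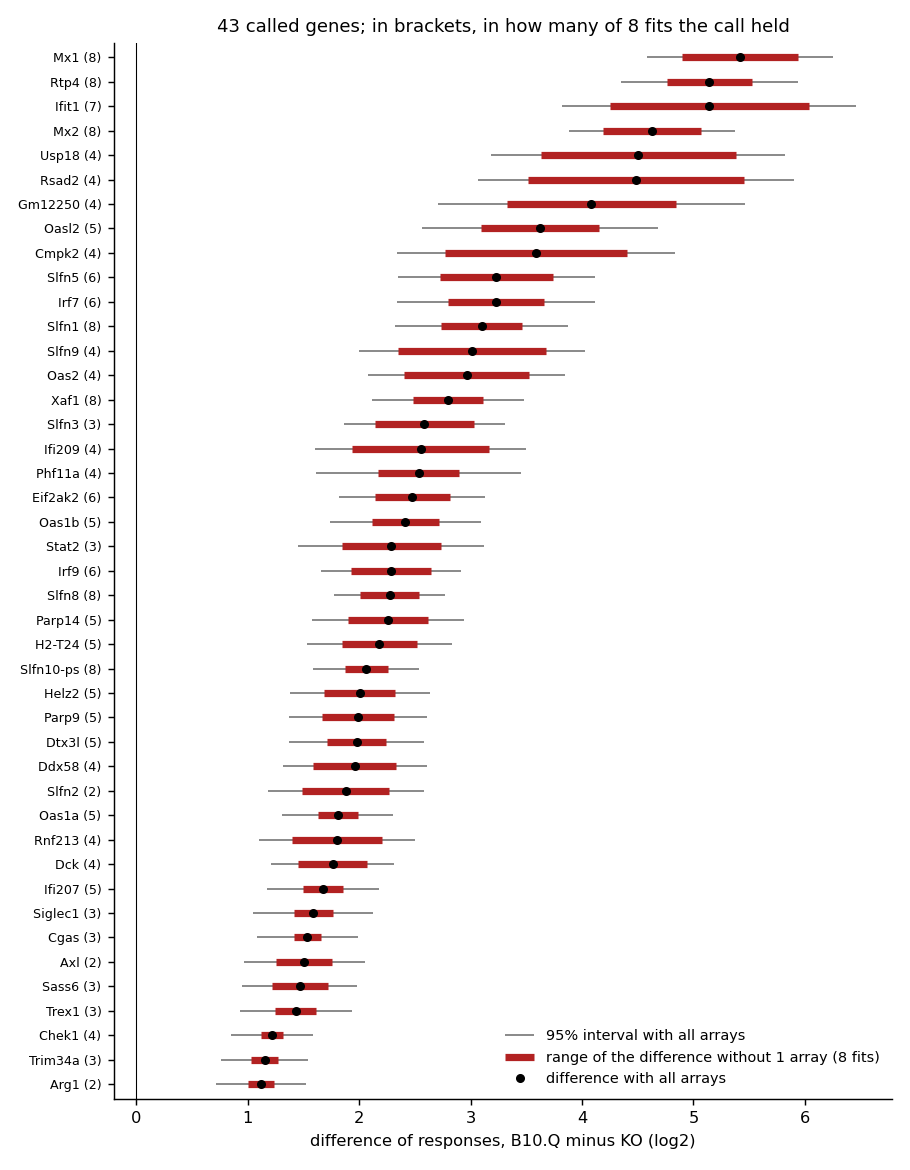
Difference of responses on the log2 scale for genes that passed, with the 95% interval (grey) and the range over the 8 fits without 1 array (red). All 43 ranges stay above 0, the lowest value being 1.00 for Arg1, while the number of fits that kept the call, in brackets, runs from 2 to 8.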

How the data were processed

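Total RNA of sorted macrophages was amplified with the Ambion WT Expression Kit and hybridised to the Mouse Gene 1.0 ST array. Per the labels and the submitters' processing notes, RMA values came from Affymetrix Power Tools, with versions not given in the sources used here. The deposited values are linear intensities per probe set, all above 0, and their log2 was used with no further scaling. Of 24922 probe sets, 21425 carried 1 gene symbol, 1399 several and 2098 none. A gene with several probe sets was represented by the one with the highest mean over the 16 arrays. Symbols were compared with RefSeq by Entrez identifier, which changed 0 of 21347 matched probe sets.

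Genes entered the test where 2 or more arrays in the fit exceeded the median of that array. The 10 macrophage arrays were fitted in 5 groups (the fifth is B10.Q at 5 h after IFNα, which adds only to the estimate of spread) with limma 3.58.1 (lmFit and eBayes, R 4.3.3), and p-values of the 4 contrasts were adjusted by Benjamini-Hochberg within each, two-sided, with 0.05 as threshold. Each error is the standard error (SE) of a log2 difference, with n = 2 arrays per group. Groups followed the titles, except 1 T-cell vehicle array grouped by its cell family label. The text names all genes past the threshold, with values in every array for the 24 with the largest difference, up to 4 members of each of the 31 lists with the largest difference, the 8 negative differences with the smallest p, and Ifnar1, Ifnar2 and Tyk2. Genes and lists were chosen with earlier results of these data known. The procedure was run on simulated data in which each gene had the same spread in every array. The unequal spread of the real groups was not simulated. Per gene, the first minus the second array was taken within the IFNα group and within the control group of a line. These differences correlated between the 2 groups at -0.01 in B10.Q and -0.29 in KO, so the numbers were not taken to pair samples. Alternatives were no filter or one at the 70th percentile, quantile normalization, array medians subtracted, trend and robust variance, every probe set, a replicate block, other sets of arrays and leaving out each array.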

Additional observations from a re-analysis of the deposited data

Results flagged for a closer look

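The test of the difference between the 2 lines, B10.Q minus KO, marked 43 genes, each with a value on the log2 scale of the difference of responses. The largest were Mx1 (5.42), Rtp4 (5.14), Ifit1 (5.14), Mx2 (4.63), Usp18 (4.50), Rsad2 (4.48), Gm12250 (4.08), Oasl2 (3.62) and Cmpk2 (3.59). Next in size were Slfn5 (3.23), Irf7 (3.23), Slfn1 (3.10), Slfn9 (3.01), Oas2 (2.96), Xaf1 (2.80), Slfn3 (2.59), Ifi209 (2.55) and Phf11a (2.53). Below them came Eif2ak2 (2.48), Oas1b (2.41), Stat2 (2.29), Irf9 (2.28), Slfn8 (2.27), Parp14 (2.26), H2-T24 (2.18), Slfn10-ps (2.06) and Helz2 (2.01). Smaller differences belonged to Parp9 (1.99), Dtx3l (1.98), Ddx58 (1.96), Slfn2 (1.88), Oas1a (1.81), Rnf213 (1.80), Dck (1.76), Ifi207 (1.68) and Siglec1 (1.59). The smallest were Cgas (1.53), Axl (1.51), Sass6 (1.47), Trex1 (1.43), Chek1 (1.22), Trim34a (1.15) and Arg1 (1.12). In 41 of the 43 both B10.Q IFNα arrays lay above the 6 other arrays, and in Axl and Chek1 they did not.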

How the results depend on the processing

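No gene of the 43 changed sign under any alternative run, but this is a description. Filters, variance settings, blocks and other sets of whole groups leave the difference itself as it was. The 43 were also chosen for large differences above 0. The total of passing genes, 43 in the main fit, was 50 without a filter, 42 at the 70th percentile and 41 with quantile normalization and with array medians subtracted. It was 44 with trend and robust variance and with every probe set, 32 with only the 4 groups and 40 with the replicate block. Of the 43 themselves, 39 kept their call with quantile normalization and 40 with array medians subtracted. With the replicate block 38 did, with only the 4 groups 32, and with all 16 arrays 41. The total with all 16 arrays was 72 (71 higher, 1 lower). Without single arrays the count ran from 8 to 491, and the 43 themselves kept their call in 8 (without the second KO control) to 43 (without either KO IFNα array). An arm left with 1 array is assumed to vary like the others. The B10.Q count of 84 ran from 36 to 134 without single arrays. The KO count of 0 became 1 with quantile normalization and 11 with all 16 arrays, and ran from 0 to 1191, the highest without the second KO IFNα array (282 higher, 909 lower). The count between lines without IFNα, 57, became 30 at the 70th percentile, 22 with the replicate block, 31 with only the 4 groups and 150 with all 16 arrays, and ran from 21 to 392. The cause of these shifts was not tested. Ifnar1 changed sign without the second vehicle array (0.0087) and without the second KO IFNα array (0.10), with a range of -0.28 to 0.10. With the KO numbers crossed, chosen after seeing the data, the block gave 52, 97, 0 and 41 genes in the 4 contrasts, in the order of difference, B10.Q, KO and lines without IFNα. The replicate block changed no call of the KO response, which stayed at 0, and gave 71 for B10.Q. Scaling moved the median of all genes by under 0.1. Array signal over background limits the sizes for Mx1, Mx2, Ifit1, Rsad2, Ifi205, Ifi213, Ifi208, Iigp1 and Ms4a4c, all dim with vehicle.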
